A study of Mus musculus with 21 samples.

Results

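Potassium channel genes were taken as all genes of the count table whose symbol starts with Kcn and a letter and whose mean level was at least 0.5 CPM (counts scaled to library depth, after edgeR's TMM correction for differences in composition). The mean ran over the 20 deep libraries described below and used no contrast between groups. Such a name was held by 98 of the 24984 genes, and 72 of these met the level. The last members inside the limit were Kcna5 at 0.532 CPM and Kcnmb4os2 at 0.675 CPM, and the first names outside it were Kcnh6 at 0.492 CPM and Kcnj14 at 0.398 CPM. All 72 members passed the filter on low counts, and 3 of them are noncoding RNAs named after a neighbouring channel gene (Kcnd3os, Kcnmb4os2 and Kcnq1ot1).

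The data are nascent RNA of primary cultures of CD1 mouse cortex at day 17 in vitro, measured by BrU-seq, in which cells build bromouridine into new RNA that is then isolated and sequenced. Every culture was first held for 30 min in DMSO, the solvent, or in 25 µM MM401, which keeps MLL1, the product of Kmt2a and a writer of H3K4 methylation, from binding WDR5. Bicuculline at 40 µM, a blocker of GABA-A receptors that raises network activity, or sterile water followed for 1 h or 4 h. All cultures took up 2 mM bromouridine over the final 30 min. The study so asked how transcription follows raised activity with and without MLL1 function. There were 7 groups of 3 libraries: DMSO with water for 4 h, DMSO with bicuculline for 1 h or 4 h, and MM401 with water or bicuculline for 1 h or 4 h. A DMSO group with water for 1 h was not analysed here, so the 1 h response in DMSO was taken against water at 4 h, and time and treatment differ together there. Both DMSO responses therefore share the same 3 water libraries, whereas the DMSO and MM401 responses share none. The replicates were biological and of mixed sex, and the cultures hold several cell types, so fewer cells of a type and less RNA per cell cannot be told apart in any result below.

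Potassium channels let potassium leave the cell and so set the resting potential, end the action potential and limit repetitive firing. Voltage-gated (Kv) channels are assembled from pore subunits of several families, with auxiliary subunits that change their gating or surface delivery. Calcium-activated and sodium-activated channels couple the current to firing, inward rectifiers and two-pore channels hold the cell near rest, and in cortical neurons these currents together decide how readily a cell fires.

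The 20 deep libraries held 49886348 to 87939384 counts in genes. Replicate 3 of MM401 with water at 4 h held 316741, or 0.503% of their median, with a median of 7 counts per member and 12 members at 0, and it was left out of the main fit, so that group has n = 2. Bicuculline libraries matched their labels: the activity genes Fos and Npas4 rose by a log2 fold change of 2.66 ± 0.17 (SE) and 4.43 ± 0.19 at 1 h in DMSO, and by 3.04 ± 0.18 and 4.02 ± 0.18 under MM401. Neuronal markers were abundant (7 of 7 present), with sums per library of 4708 to 5894 CPM in water and 5513 to 7354 CPM in bicuculline. Astrocyte markers summed to 1092 to 1617 CPM in water and 1344 to 1691 CPM in bicuculline libraries (7 of 7 present), GABAergic markers to 345 to 400.3 and 523 to 705 CPM (7 of 7), oligodendrocyte lineage markers to 139 to 160.1 and 164 to 189 CPM (8 of 8), microglial markers to 29.6 to 38.2 and 27.4 to 45.4 CPM (7 of 7) and vascular markers to 8.96 to 11.9 and 11.3 to 14.1 CPM (6 of 6, 1 of them at 0 in part of the libraries). Their part in the results was not tested. One library of DMSO with water at 4 h (replicate 1) stood apart from the other two of its group in long genes, as given below.

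Sequence upstream of the start is shown for 3 of the 4 members that rose in all 4 bicuculline comparisons (Kcnj2, Kcna4 and Kcnj4) and for 1 of the 13 that fell in all 4 (Kcnc4), since members that moved together could hold the same short motifs. Each line gives the 250 bases that lead up to the annotated start, 5′ to 3′ on the strand of the gene, from RefSeq (GRCm38.p6). Capitals mark matches to any of the motifs searched on both strands: TGACTCA (AP-1), TGACG (a part of the cAMP response element), CACGTG (E-box) and TCGTG (a core of the Npas4 site). The short letters can lie inside a longer motif, and TGACG and TCGTG can overlap each other.
Kcnj2 (chr11:111065914-111066163, plus strand): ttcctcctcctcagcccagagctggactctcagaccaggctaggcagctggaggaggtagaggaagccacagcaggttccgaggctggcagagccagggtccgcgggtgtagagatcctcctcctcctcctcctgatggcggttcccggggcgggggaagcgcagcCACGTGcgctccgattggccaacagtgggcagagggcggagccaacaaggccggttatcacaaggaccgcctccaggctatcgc
Kcna4 (chr2:107290339-107290588, plus strand): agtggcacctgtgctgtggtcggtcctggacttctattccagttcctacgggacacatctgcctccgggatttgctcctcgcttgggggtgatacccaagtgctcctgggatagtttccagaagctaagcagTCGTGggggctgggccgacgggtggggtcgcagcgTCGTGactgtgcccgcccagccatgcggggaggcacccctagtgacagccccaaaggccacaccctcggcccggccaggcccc
Kcnj4 (chr15:79505242-79505491, minus strand): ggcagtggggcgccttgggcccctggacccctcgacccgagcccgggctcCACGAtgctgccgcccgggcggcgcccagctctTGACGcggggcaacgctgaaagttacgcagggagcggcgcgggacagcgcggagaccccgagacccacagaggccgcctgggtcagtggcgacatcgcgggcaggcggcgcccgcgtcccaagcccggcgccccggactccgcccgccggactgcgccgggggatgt
Kcnc4 (chr3:107458899-107459148, minus strand): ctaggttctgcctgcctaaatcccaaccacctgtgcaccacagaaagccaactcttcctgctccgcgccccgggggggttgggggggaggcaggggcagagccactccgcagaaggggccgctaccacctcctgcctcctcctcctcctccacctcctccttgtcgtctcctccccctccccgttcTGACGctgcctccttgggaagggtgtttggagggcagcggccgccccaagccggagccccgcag

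The promoters of the 4 members that rose in all 4 comparisons did not share 1 motif. That of Kcnmb4, which is not printed, held none of the motifs. That of Kcnj2 held CACGTG, that of Kcna4 held TCGTG at 2 places, that of Kcnj4 held TGACG and TCGTG on opposite strands, and that of Kcnc4, a gene that fell, also held TGACG. RefSeq promoters of 300 bases (250 before and 50 after the start) were matched for 50 of the 72 members, with 73 promoters among 32851 of all genes. TGACTCA was found in 2.74% of the member promoters and in 5.2% of all promoters. TGACG was found in 17.8% and 20.8%, CACGTG in 5.48% and 7.15%, and TCGTG in 16.4% and 16%. The share in member promoters was lower than that in all promoters for 3 of the 4 motifs and close to it for TCGTG, which was not tested. These are matches of letters in a window and no measure of binding.

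Levels can be compared between genes only per length, here as CPM per kb of the whole gene. The highest mean levels over the deep libraries were those of Kcna4 (4.76 CPM per kb), Kcnf1 (4.35), Kcnv1 (4.22), the noncoding Kcnq1ot1 (4.08), Kcnj3 (3.51) and Kcna1 (3.49). The lowest were those of Kcnq1 (0.00507), Kcnu1 (0.0188) and Kcnj16 (0.0322). Within the Kv families the range was 0.177 to 4.76 CPM per kb for Kv1 and 0.201 to 2.55 for Kv4. It was 0.0747 to 2.51 for the EAG, ERG and ELK genes (Kcnh), 0.0646 to 4.35 for the silent Kv subunits and 0.303 to 1.33 for the auxiliary subunits. Calcium-activated or sodium-activated channels ranged from 0.0188 to 2.16, inward rectifiers from 0.0322 to 3.51 and two-pore channels from 0.0756 to 1.15 CPM per kb. Summed over members, the group mean on the TMM scale was 10679 CPM in DMSO with water at 4 h. It was 12252 and 12890.0 CPM after 1 h and 4 h of bicuculline, and between 11344 and 13074 CPM in the MM401 groups. These sums are not shares of the raw counts. With plain library sizes the median of all genes moved by -0.19 at 1 h and -0.28 at 4 h in DMSO on the log2 scale. The per-library sums of DMSO with water (9125 to 13021 CPM) overlapped those of both bicuculline groups (12043 to 12434 and 12383 to 13736 CPM).

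Bicuculline changed 34 to 44 of the 72 members, depending on the comparison, and more fell than rose in each with all deep libraries. A gene passed the test, and is said to have risen or fallen, when edgeR's quasi-likelihood test gave a Benjamini-Hochberg adjusted p under 0.05 over the 16959 genes tested. At 1 h in DMSO 14 members rose and 22 fell, where 20% of all genes rose and 24.5% fell (members 19.4% and 30.6%). At 4 h in DMSO 19 rose and 25 fell (26.4% and 34.7%, all genes 23.7% and 25.5%). At 1 h under MM401 12 rose and 22 fell (16.7% and 30.6%, all genes 18.1% and 21.8%). At 4 h under MM401 15 rose and 28 fell (20.8% and 38.9%, all genes 23.0% and 21.7%). The share of members that rose thus lay near the background in each comparison, and the share that fell lay above it, a difference that was not tested. The median log2 fold change of members was -0.014, -0.043, 0.057 and -0.18 in these comparisons, in that order, beside -0.038, -0.024, -0.0018 and 0.016 for all genes. Called changes of at least 2-fold were seen in 5.56%, 11.1%, 5.56% and 9.72% of members, in the same order, and in 4.12%, 5.54%, 3.17% and 5.87% of all genes. Of the members, 1 rose and 3 fell at 1 h in DMSO, 1 and 7 at 4 h in DMSO, 1 and 3 at 1 h under MM401, and 1 and 6 at 4 h under MM401. Without replicate 1 of DMSO with water the split at 1 h in DMSO turned to 25 members that rose and 19 that fell (34.7% and 26.4%, all genes 21.3% and 25.3%), and at 4 h under MM401 it was 8 and 28 when water replicate 2 was left out (11.1% and 38.9%, all genes 14.9% and 17.6%).

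The split depends on how libraries are scaled. With the plain library size in place of TMM, the median of all genes moved on the log2 scale by -0.19 at 1 h and -0.28 at 4 h in DMSO. Under MM401 it moved by -0.21 at 1 h and -0.075 at 4 h. The members then split as 8 higher and 31 lower, 12 and 40, 4 and 34, and 12 and 33, in that order. At 1 h in DMSO that is 11.1% and 43.1% of members, near the 10.8% and 40.2% of all genes under the same scaling. At 4 h in DMSO it is 16.7% and 55.6%, beside 10.7% and 46.4% of all genes, and at 1 h under MM401 5.56% and 47.2%, beside 7.52% and 38.6%. At 4 h under MM401 it is 16.7% and 45.8%, beside 16.5% and 24.4%. Changes are given below relative to the TMM scale.

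**Figure D1:**
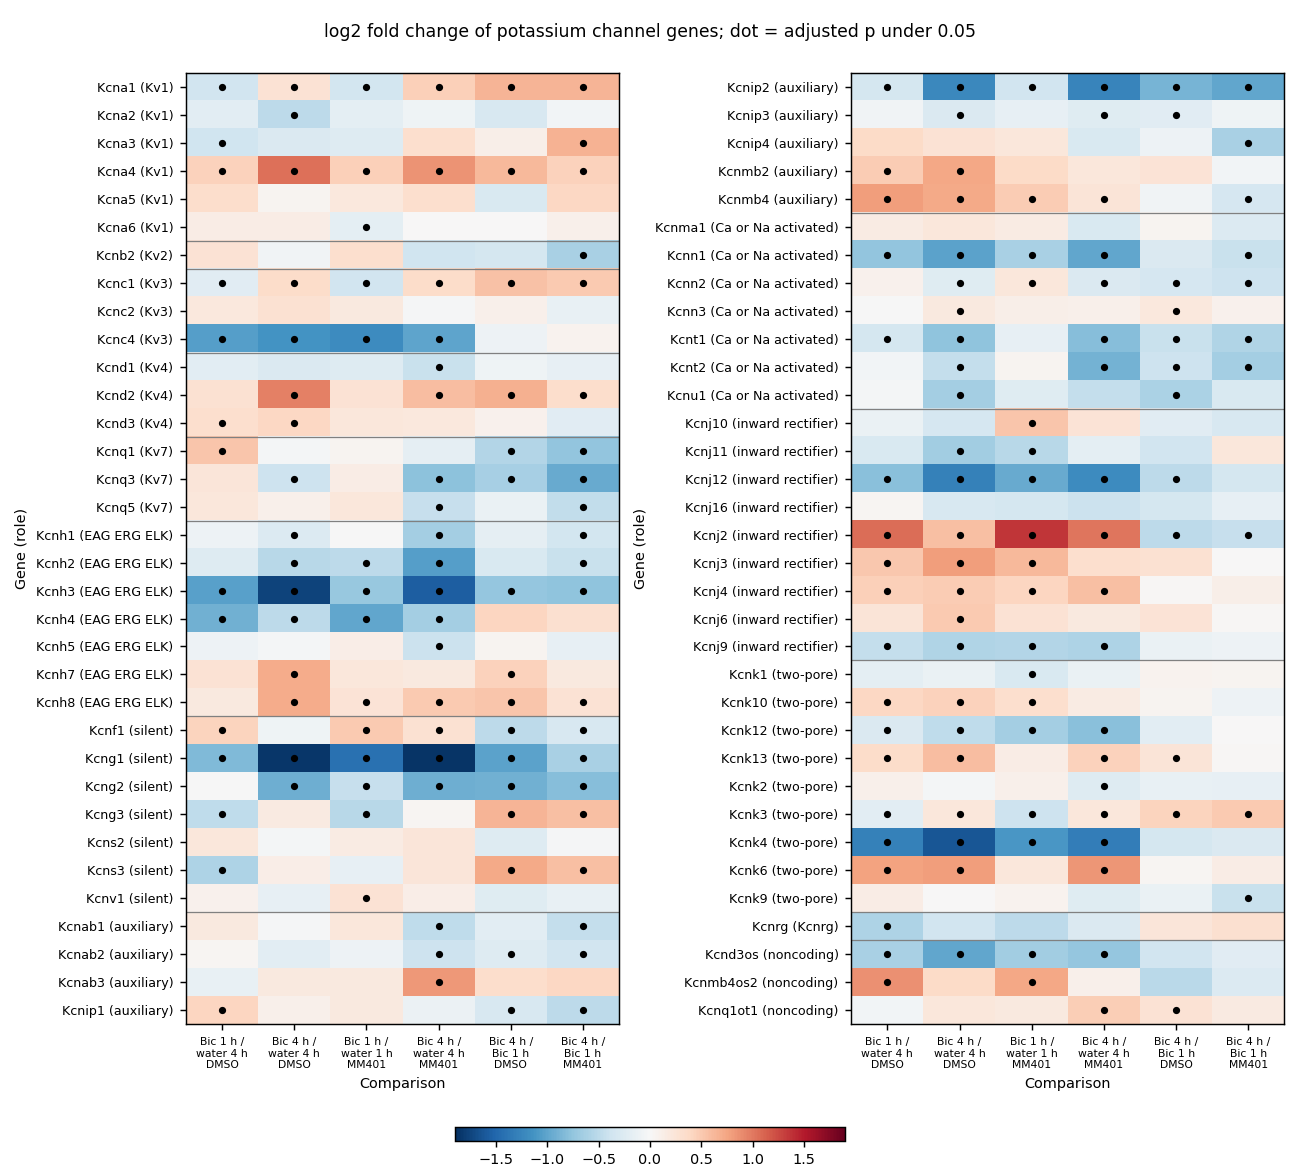
Log2 fold change of potassium channel genes (rows, ordered by role) in 6 comparisons (columns); red is higher and blue is lower in the group named first, and a dot marks an adjusted p under 0.05. Kcng1, Kcnh3, Kcnk4, Kcnc4, Kcnj12 and Kcnn1 are blue with a dot in the first 4 columns, and Kcnj2, Kcna4, Kcnmb4 and Kcnj4 are red with a dot.

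Kcnj2, which encodes an inward rectifier that holds neurons near rest, had the largest rise at 1 h in both pretreatments. With DMSO, Kcnj2 measured 17.3, 19.4 and 22.2 CPM in water, 41.2, 38 and 44 after 1 h of bicuculline and 30.4, 30.6 and 26.7 after 4 h. Under MM401 the levels of Kcnj2 were 14.5, 15 and 17.6 CPM in water at 1 h, 14.9 and 14.4 in water at 4 h, 36.9, 41.9 and 42 after 1 h of bicuculline and 27.2, 30.4 and 31.5 after 4 h. Every bicuculline library lay above every water library of its comparison, and the 1 h libraries lay above the 4 h libraries in both pretreatments. The log2 fold changes against water were 1.06 ± 0.092 at 1 h and 0.57 ± 0.092 at 4 h in DMSO (edgeR adjusted p = 5.08e-09 and 2.03e-05), and 1.36 ± 0.093 and 1.02 ± 0.11 under MM401 (edgeR adjusted p = 1.24e-10 and 1.15e-07). From 1 h to 4 h Kcnj2 fell by 0.49 and 0.44 on the log2 scale (edgeR adjusted p = 0.000184 and 0.000615). The MM401 value was -0.34 (edgeR adjusted p = 0.122) with each time taken against its own water.

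Other inward rectifiers moved in both directions. Kcnj4, a close relative of Kcnj2, rose in all 4 comparisons, by 0.46 ± 0.11 and 0.48 ± 0.11 in DMSO and 0.41 ± 0.11 and 0.57 ± 0.12 under MM401 (edgeR adjusted p at most 0.0036). In the DMSO libraries the Kcnj4 level was 14.4, 14.6 and 17.8 CPM in water, 19.9, 21 and 23.4 CPM at 1 h and 20.9, 19.6 and 24.8 CPM at 4 h. Under MM401, Kcnj4 stood at 15.8, 16.2 and 18.2 CPM (water 1 h), 16.7 and 15.4 CPM (water 4 h), 23.6, 21.3 and 21.8 CPM (bicuculline 1 h) and 25.1, 20.1 and 26.4 CPM (bicuculline 4 h). The libraries of the groups did not overlap in any of these comparisons. With plain library sizes Kcnj4 missed the threshold in 3 of the 4, at 0.26 and 0.20 in DMSO (edgeR adjusted p = 0.0905 and 0.177) and 0.20 at 1 h under MM401 (edgeR adjusted p = 0.222). Kcnj12, also a strong rectifier of that subfamily, fell in all 4. With DMSO, Kcnj12 measured 9.23, 8.5 and 7.02 CPM in water, 5.04, 4.88 and 4.32 after 1 h of bicuculline and 2.76, 3.72 and 3.62 after 4 h. In the MM401 libraries Kcnj12 measured 9.74, 9.63 and 8.05 CPM in water at 1 h, 8.67 and 8.44 in water at 4 h, 4.87, 4.73 and 4.47 after 1 h of bicuculline and 4.2, 3.29 and 3.68 after 4 h. Its lowest water library stood above its highest bicuculline library, and its log2 fold changes were -0.79 ± 0.12, -1.29 ± 0.13, -0.96 ± 0.12 and -1.20 ± 0.14.

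Of the G-protein-gated rectifiers, which carry inhibitory neurotransmitter signals, Kcnj3 rose by 0.51 ± 0.14 and 0.80 ± 0.14 at 1 h and 4 h in DMSO and by 0.61 ± 0.14 at 1 h under MM401. At 4 h under MM401 its value was 0.32 ± 0.16 (edgeR adjusted p = 0.11). Kcnj6 rose at 4 h in DMSO (0.49 ± 0.12), and Kcnj9 fell in all 4 comparisons by 0.45 to 0.58 on the log2 scale. Kcnj11, the pore of the ATP-sensitive channel, fell at 4 h in DMSO (-0.66 ± 0.18) and at 1 h under MM401 (-0.52 ± 0.19). Kcnj10, the main rectifier of astrocytes, passed only at 1 h under MM401 among the 4 (0.52 ± 0.18, edgeR adjusted p = 0.0291), and 5 of 7 astrocyte markers rose in the same comparison, against 3 of 7 higher and 1 lower at 1 h in DMSO, where Kcnj10 had -0.12 ± 0.17. At 4 h, where Kcnj10 did not pass, 4 of 7 markers rose under MM401 and 1 of 7 in DMSO, and 0 fell in either. The part of astrocytes in the Kcnj10 values was not tested. Kcnj16 passed in none. In all, of 9 inward rectifiers 3 rose and 2 fell at 1 h in DMSO (33.3% and 22.2%, all genes 20% and 24.5%) and 4 and 3 at 4 h in DMSO (44.4% and 33.3%, all genes 23.7% and 25.5%). Under MM401 4 rose and 3 fell at 1 h (44.4% and 33.3%, all genes 18.1% and 21.8%), and 2 rose and 2 fell at 4 h (22.2% each, all genes 23.0% and 21.7%). With 9 genes, 1 call is 11.1%, and the differences from all genes were not tested, here and in the other subfamilies.

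**Figure D2:**
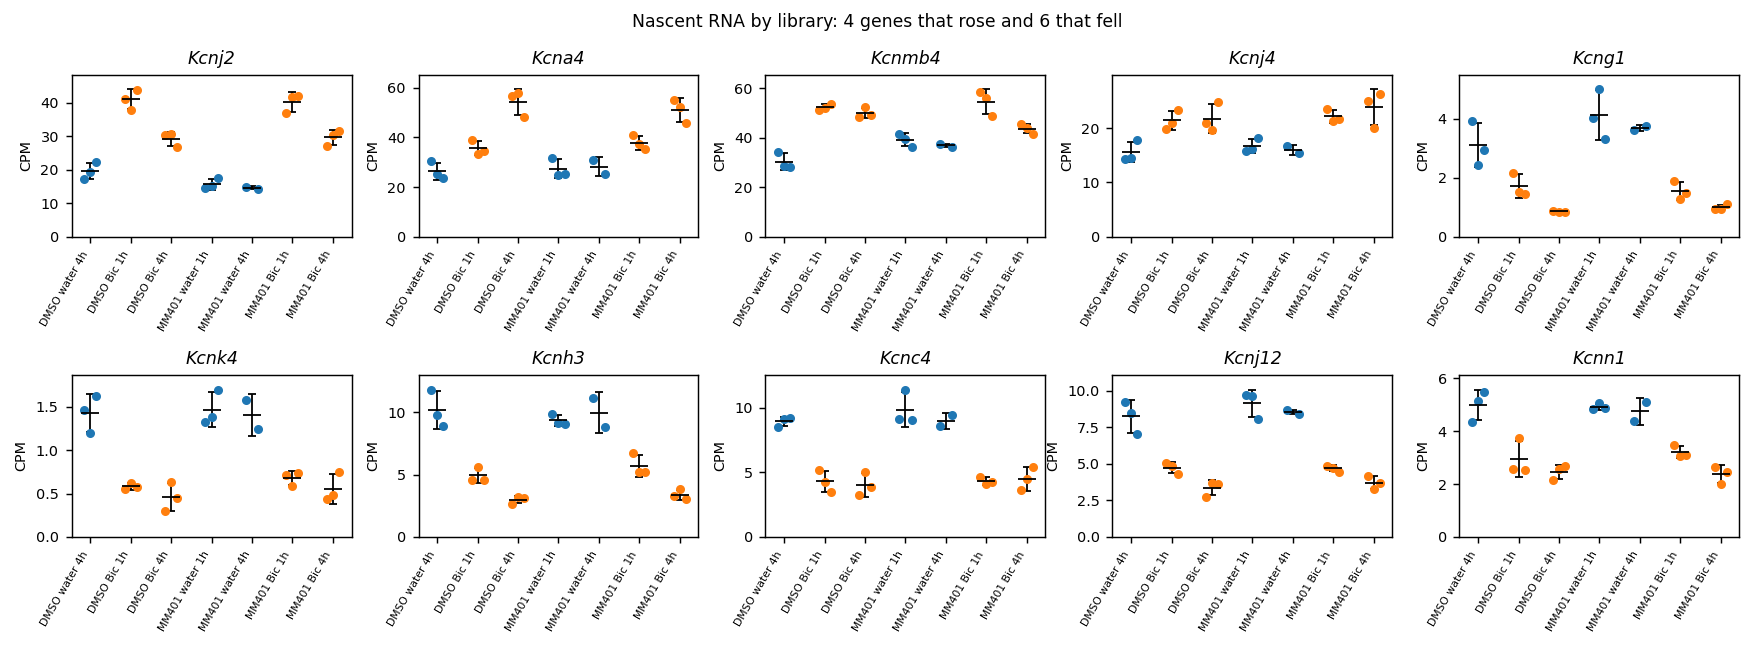
Level in CPM (vertical axis, from 0) of 10 members in each library of the 7 groups (blue, water; orange, bicuculline); points are libraries, and the bars give the mean and SD (n = 3, or 2 for MM401 with water at 4 h). Kcnj2, Kcna4, Kcnmb4 and Kcnj4 sit higher in the bicuculline groups and the other 6 sit lower, in both pretreatments.

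Among Kv1 genes, whose channels sit on axons and set the firing threshold, Kcna4 rose and went on rising. With DMSO the level of Kcna4 was 30.3, 25.1 and 23.8 CPM in water, 38.9, 33.4 and 34.6 CPM at 1 h and 56.6, 57.8 and 48.4 CPM at 4 h. Under MM401, Kcna4 stood at 31.8, 24.8 and 25.4 CPM (water 1 h), 30.9 and 25.4 CPM (water 4 h), 40.8, 37.2 and 35.3 CPM (bicuculline 1 h) and 55.1, 52.4 and 45.7 CPM (bicuculline 4 h). No bicuculline library overlapped its water group, and the 4 h libraries lay above the 1 h libraries in both pretreatments. Kcna4, the pore of a fast inactivating (A-type) channel, rose by 0.44 ± 0.11 at 1 h and 1.04 ± 0.11 at 4 h in DMSO, and by 0.46 ± 0.11 and 0.86 ± 0.13 under MM401 (edgeR adjusted p at most 0.0037). From 1 h to 4 h the further rise was 0.61 ± 0.11 and 0.44 ± 0.11. The MM401 value missed the threshold with each time taken against its own water (0.40, edgeR adjusted p = 0.142), with the gene length correction (0.36, 0.0611) and with all 21 libraries (0.41, 0.0507). Kcna2 fell at 4 h in DMSO (-0.50 ± 0.13), Kcna3 fell at 1 h in DMSO (-0.38 ± 0.14) and Kcna6 fell at 1 h under MM401 (-0.18 ± 0.062). Kcna5, at 0.532 CPM, passed in none. Kcna1 is described with the genes that turned between 1 h and 4 h.

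Kv4 channels carry the A-type current of dendrites, and their partners, the KChIP proteins (Kcnip), bring them to the surface. Kcnd2 rose at 4 h in both pretreatments, by 0.96 ± 0.13 in DMSO and 0.59 ± 0.14 under MM401. The DMSO libraries held Kcnd2 at 1186, 877 and 842 CPM in water, 1228, 1134 and 1184 CPM at 1 h and 1882, 1975 and 1787 CPM at 4 h. Under MM401, Kcnd2 stood at 1245, 964 and 981 CPM (water 1 h), 1114 and 1056 CPM (water 4 h), 1271, 1399 and 1207 CPM (bicuculline 1 h) and 1785, 1785 and 1316 CPM (bicuculline 4 h). In both pretreatments all 4 h libraries lay above the water libraries, and at 1 h Kcnd2 did not pass (0.29 ± 0.13 and 0.28 ± 0.13). Kcnd3 rose in DMSO at both times (0.32 ± 0.09 and 0.40 ± 0.091), with 0.22 ± 0.09 and 0.20 ± 0.1 under MM401. Both DMSO calls of Kcnd3 were lost with plain library sizes and with all 21 libraries, and that at 1 h also with the gene length correction. Its antisense neighbour Kcnd3os fell in all 4 comparisons (-0.62 ± 0.17, -0.98 ± 0.17, -0.66 ± 0.17 and -0.74 ± 0.2). The genes overlap and the strand setting of the counting is not given in the sources used here, so both values are uncertain where they overlap. Kcnd1 fell at 4 h under MM401 (-0.43 ± 0.15).

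Against the rise of Kcnd2, the KChIP gene Kcnip2 fell. With DMSO, Kcnip2 measured 19.1, 17.8 and 17.9 CPM in water, 13.9, 14.6 and 15 after 1 h of bicuculline and 7.73, 7.77 and 7.89 after 4 h. Kcnip2 under MM401 measured 19.6, 19.7 and 18.5 CPM in water at 1 h, 19.2 and 17 in water at 4 h, 18.1, 13.2 and 13.6 after 1 h of bicuculline and 8.31, 7.11 and 7.31 after 4 h. The 4 h libraries stood at less than any water or 1 h library in both pretreatments. The log2 fold changes were -0.33 ± 0.094 and -1.23 ± 0.097 at 1 h and 4 h in DMSO and -0.37 ± 0.094 and -1.26 ± 0.11 under MM401 (edgeR adjusted p = 0.00614, 8.43e-10, 0.00308 and 5.60e-09). Small RNA genes lie within Kcnip2 on the same strand, so a part of its count may belong to them. Kcnip3 fell at 4 h (-0.28 ± 0.064 and -0.23 ± 0.071) and Kcnip1 rose at 1 h in DMSO (0.41 ± 0.08). Kcnip4, the longest member at 896.0 kb, passed in none of the 4.

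The silent subunits (Kcnf, Kcng, Kcns, Kcnv) form no channel alone and modify other Kv channels. Kcng1 had the largest fall of all members at 4 h. With DMSO, Kcng1 measured 3.94, 2.44 and 2.95 CPM in water, 2.17, 1.53 and 1.44 after 1 h of bicuculline and 0.867, 0.849 and 0.852 after 4 h. The MM401 libraries gave Kcng1 at 4.04, 5 and 3.31 CPM in water at 1 h, 3.61 and 3.75 in water at 4 h, 1.9, 1.28 and 1.48 after 1 h of bicuculline and 0.945, 0.954 and 1.1 after 4 h. Water and bicuculline libraries did not overlap, although at 0.849 to 0.867 CPM the DMSO 4 h libraries lie low. Kcng1 fell by 0.84 and 1.85 on the log2 scale at 1 h and 4 h in DMSO (SE 0.19 and 0.2) and by 1.42 and 1.87 under MM401 (SE 0.19 and 0.22). Kcng2 fell at 4 h in both pretreatments (-0.93 ± 0.12 and -0.93 ± 0.13) and at 1 h under MM401 (-0.44 ± 0.11). Kcng3 fell at 1 h in both (-0.48 ± 0.087 and -0.53 ± 0.088) and was at 0.17 ± 0.086 and 0.038 ± 0.097 at 4 h. Kcnf1 rose at 1 h in both (0.42 ± 0.1 and 0.50 ± 0.1) and at 4 h under MM401 (0.29 ± 0.11), with -0.076 ± 0.1 at 4 h in DMSO. Kcns3 fell at 1 h in DMSO (-0.59 ± 0.13), Kcnv1 rose at 1 h under MM401 (0.27 ± 0.1), and Kcns2 passed in none.

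Kv3 channels allow fast firing by ending action potentials quickly. Kcnc4 fell in all 4 comparisons. Levels of Kcnc4 in DMSO were 8.53, 9.1 and 9.21 CPM in water, 5.17, 4.22 and 3.51 CPM at 1 h and 3.22, 5.02 and 3.88 CPM at 4 h. Under MM401, Kcnc4 stood at 9.09, 11.4 and 9.02 CPM (water 1 h), 8.56 and 9.4 CPM (water 4 h), 4.65, 4.07 and 4.25 CPM (bicuculline 1 h) and 3.6, 4.45 and 5.43 CPM (bicuculline 4 h). Kcnc4 was lower in every bicuculline library than in every water library, with log2 fold changes of -1.05 ± 0.16 and -1.14 ± 0.16 in DMSO and -1.19 ± 0.16 at 1 h under MM401. At 4 h under MM401 it fell by 1.00 (SE 0.17). It did not differ detectably between 1 h and 4 h (-0.093 ± 0.16 and 0.061 ± 0.16). Kcnc2 and, of the delayed rectifiers, Kcnb2 passed in none of the 4. Kcnc1 turned with time.

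Kcna1, Kcnc1 and the two-pore gene Kcnk3 were below water at 1 h and above water at 4 h in both pretreatments. They were picked because they were called in both directions, so their change between the times follows largely from that choice and is given as a description, with no test. Kcna1 encodes a low-threshold Kv1 pore and Kcnk3 an acid-sensitive background channel. With DMSO, Kcna1 measured 30.1, 30.9 and 35.2 CPM in water, 27.8, 25.2 and 21.5 after 1 h of bicuculline and 36.8, 42.3 and 37 after 4 h. After MM401, Kcna1 had levels of 33.7, 33.8 and 33.6 CPM in water at 1 h, 30.3 and 30.4 in water at 4 h, 26, 25.5 and 27.9 after 1 h of bicuculline and 39.9, 42.7 and 41.3 after 4 h. In both pretreatments the 1 h libraries lay under, and the 4 h libraries over, all water libraries of their comparison. Kcna1 changed by -0.37 ± 0.079 and 0.27 ± 0.078 in DMSO and by -0.35 ± 0.079 and 0.45 ± 0.089 under MM401. The change from 1 h to 4 h was 0.64 ± 0.079 in both.

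In the DMSO libraries the Kcnc1 level was 43.3, 38.2 and 39.3 CPM in water, 33.8, 36.9 and 33.9 CPM at 1 h and 50.2, 49.8 and 54.2 CPM at 4 h. Under MM401, Kcnc1 stood at 49.3, 47.2 and 49.4 CPM (water 1 h), 46.3 and 37.6 CPM (water 4 h), 42.7, 36 and 35.3 CPM (bicuculline 1 h) and 55.9, 49.1 and 55.6 CPM (bicuculline 4 h). Kcnc1 changed by -0.21 ± 0.08 and 0.35 ± 0.08 in DMSO and by -0.36 ± 0.08 and 0.35 ± 0.09 under MM401, and by 0.56 ± 0.08 and 0.50 ± 0.08 from 1 h to 4 h. With DMSO, Kcnk3 measured 15.2, 14 and 15.5 CPM in water, 13, 12.4 and 13.7 after 1 h of bicuculline and 17.8, 16.4 and 17.9 after 4 h. Under MM401 the levels of Kcnk3 were 17.1, 17.3 and 17.8 CPM in water at 1 h, 15.4 and 16.9 in water at 4 h, 14, 13.7 and 12.2 after 1 h of bicuculline and 19.9, 17.9 and 18.4 after 4 h. The shifts of Kcnk3 were small but the groups did not overlap at 1 h: -0.20 ± 0.073 and 0.22 ± 0.072 in DMSO, -0.39 ± 0.073 and 0.21 ± 0.081 under MM401, and 0.42 ± 0.073 and 0.49 ± 0.073 from 1 h to 4 h.

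The calls of these 3 genes against water did not hold under all alternatives. With plain library sizes Kcna1 and Kcnk3 were at -0.0086 and -0.054 at 4 h in DMSO (edgeR adjusted p = 0.95 and 0.611) and Kcnc1 at 0.084 (edgeR adjusted p = 0.429). Kcna1 at 4 h in DMSO missed the threshold without bicuculline replicate 2 (edgeR adjusted p = 0.0519). Kcnc1 at 1 h in DMSO missed it without any of bicuculline replicates 1 and 3 and water replicates 1, 2 and 3 (edgeR adjusted p = 0.119, 0.161, 0.156, 0.0672 and 0.0762), and at 4 h under MM401 without water replicate 2 (0.21). Kcnk3 at 1 h in DMSO missed it without bicuculline replicates 1 or 2 or water replicates 1 or 3 (edgeR adjusted p = 0.0655, 0.115, 0.069 and 0.156). At 4 h Kcnk3 missed it without DMSO bicuculline replicate 3 or water replicate 2 (0.0535 and 0.121), and under MM401 without bicuculline replicates 1 or 3 or water replicates 1 or 2 (0.14, 0.0509, 0.373 and 0.076). At 1 h in DMSO Kcnc1 and Kcnk3 also missed it with DESeq2, with DESeq2's size factors in edgeR, with the compared groups alone and with all 21 libraries. Kcnk3 at 4 h missed it with the compared groups alone and with all 21 libraries in both pretreatments, and under MM401 also with plain library sizes, with DESeq2's size factors in edgeR and with no filter on low counts. Kcna1 at 4 h in DMSO missed it with all 21 libraries. Kcnk3 overlaps Gm9899 on the other strand. GABAergic markers, which include genes of cells that also use Kv3 channels, summed to 345 to 375 CPM in water, 523 to 599.8 at 1 h and 662 to 705 at 4 h in DMSO, and under MM401 to 347 to 400.3 in water, 585 to 657 at 1 h and 606 to 675 at 4 h. Their part in the course of these genes was not tested.

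**Figure D3:**
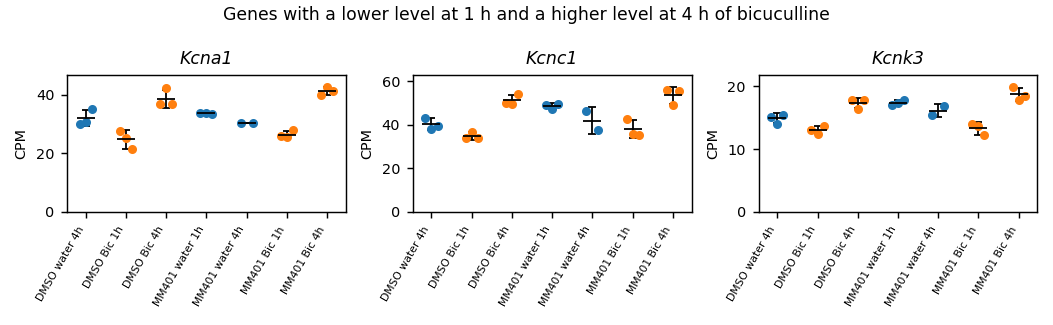
Level in CPM (vertical axis, from 0) of Kcna1, Kcnc1 and Kcnk3 in each library of the 7 groups (blue, water; orange, bicuculline), with the mean and SD. In both pretreatments the 1 h bicuculline points of each gene lie under its 4 h bicuculline points without overlap.

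Kv7 channels carry the M-current that damps repetitive firing. Kcnq3 fell at 4 h, by 0.40 in DMSO (SE 0.13) and 0.78 under MM401 (SE 0.15), with 0.23 ± 0.13 and 0.14 ± 0.13 at 1 h. With DMSO, Kcnq3 measured 741, 588 and 511 CPM in water, 688, 775 and 695 after 1 h of bicuculline and 407, 524 and 459 after 4 h. In the MM401 libraries Kcnq3 measured 805, 733 and 601 CPM in water at 1 h, 708 and 674 in water at 4 h, 850.0, 824 and 682 after 1 h of bicuculline and 406, 455 and 349 after 4 h. The DMSO 4 h libraries overlapped the water libraries for Kcnq3, whereas under MM401 they did not, and in both pretreatments they lay under the 1 h libraries. Kcnq5, at 564 kb a long gene, passed at 4 h under MM401 (-0.44 ± 0.15) and not in DMSO (0.092 ± 0.13), and the difference between the arms was -0.53 ± 0.2 (edgeR adjusted p = 0.246). Kcnq1 rose at 1 h in DMSO (0.53 ± 0.16) at a level of 1.62 CPM over 319.8 kb, and it lies across from Kcnq1ot1, a far more abundant noncoding RNA, which rose at 4 h under MM401 (0.47 ± 0.12).

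Of the 7 Kcnh genes, 0 rose and 2 fell at 1 h in DMSO (0% and 28.6%, all genes 20% and 24.5%) and 2 rose and 4 fell at 4 h in DMSO (28.6% and 57.1%, all genes 23.7% and 25.5%). Under MM401 1 rose and 3 fell at 1 h (14.3% and 42.9%, all genes 18.1% and 21.8%) and 1 rose and 5 fell at 4 h (14.3% and 71.4%, all genes 23.0% and 21.7%). Kcnh3, an ELK channel of forebrain neurons, had the second largest fall at 4 h. With DMSO, Kcnh3 measured 11.8, 9.78 and 8.86 CPM in water, 4.57, 5.64 and 4.59 after 1 h of bicuculline and 2.64, 3.18 and 3.1 after 4 h. Kcnh3 under MM401 measured 9.85, 9.11 and 9.02 CPM in water at 1 h, 11.1 and 8.77 in water at 4 h, 6.72, 5.17 and 5.21 after 1 h of bicuculline and 3.24, 3.8 and 3.06 after 4 h. Its groups did not overlap, and the 4 h libraries lay under the 1 h libraries. The log2 fold changes were -1.03 ± 0.13 and -1.76 ± 0.14 in DMSO and -0.72 ± 0.13 and -1.56 ± 0.15 under MM401. Kcnh3 overlaps Mcrs1 on the other strand. Kcnh4, another ELK channel, fell by 0.91 and 0.50 on the log2 scale in DMSO and by 0.98 and 0.65 under MM401. Kcnh2, an ERG channel, fell at 4 h in DMSO (-0.53 ± 0.11) and at both times under MM401 (-0.50 ± 0.11 and -1.04 ± 0.13). Kcnh8 rose at 4 h in both (0.70 ± 0.082 and 0.49 ± 0.093) and at 1 h under MM401 (0.26 ± 0.083), and Kcnh7 rose at 4 h in DMSO (0.71 ± 0.17). Kcnh1 fell at 4 h in both (-0.26 ± 0.091 and -0.64 ± 0.1) and Kcnh5 at 4 h under MM401 (-0.41 ± 0.1).

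Of the 7 calcium-activated or sodium-activated channel genes, 1 rose and 5 fell at 4 h in DMSO (14.3% and 71.4%, all genes 23.7% and 25.5%), and 0 rose and 4 fell at 4 h under MM401 (0% and 57.1%, all genes 23.0% and 21.7%). At 1 h 0 rose and 2 fell in DMSO (0% and 28.6%, all genes 20% and 24.5%) and 1 rose and 1 fell under MM401 (14.3% each, all genes 18.1% and 21.8%). Kcnn1, an SK channel of the afterhyperpolarisation, fell in all 4 comparisons. With DMSO the level of Kcnn1 was 4.35, 5.15 and 5.48 CPM in water, 2.58, 3.75 and 2.54 CPM at 1 h and 2.16, 2.56 and 2.67 CPM at 4 h. Under MM401, Kcnn1 stood at 4.84, 5.06 and 4.88 CPM (water 1 h), 4.4 and 5.11 CPM (water 4 h), 3.47, 3.05 and 3.11 CPM (bicuculline 1 h) and 2.66, 2.02 and 2.46 CPM (bicuculline 4 h). Its bicuculline libraries did not overlap its water libraries, and its log2 fold changes were -0.75 ± 0.14, -1.02 ± 0.14, -0.62 ± 0.14 and -0.99 ± 0.16. Kcnn2 fell at 4 h in both pretreatments (-0.23 ± 0.061 and -0.28 ± 0.068) and rose at 1 h under MM401 (0.22 ± 0.061), a direction that turns when the counts are corrected for gene length. Kcnn3 rose at 4 h in DMSO (0.19 ± 0.055), which turns with plain library sizes and with the length correction. The sodium-activated Kcnt1 fell at 4 h (-0.76 ± 0.13 and -0.81 ± 0.14) and at 1 h in DMSO (-0.34 ± 0.12), and Kcnt2 fell at 4 h (-0.46 ± 0.14 and -0.90 ± 0.16). Kcnu1 fell at 4 h in DMSO (-0.65 ± 0.17). Kcnma1, the pore of the BK channel, passed in none of the 4 (0.16 ± 0.13, 0.21 ± 0.13, 0.16 ± 0.13 and -0.29 ± 0.14).

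The BK auxiliary gene Kcnmb4, the main neuronal beta subunit of that channel, rose in all 4 comparisons. With DMSO, Kcnmb4 measured 34.3, 28.5 and 28 CPM in water, 51.2, 51.8 and 53.6 after 1 h of bicuculline and 48.2, 52.2 and 49.3 after 4 h. The MM401 libraries gave Kcnmb4 at 41.5, 39.5 and 36.4 CPM in water at 1 h, 37.4 and 36.4 in water at 4 h, 58.5, 56.1 and 48.8 after 1 h of bicuculline and 45.3, 43.9 and 41.6 after 4 h. No bicuculline library fell into the range of its water group, and the MM401 water libraries lay above those of DMSO. The log2 fold changes were 0.79 ± 0.075 and 0.72 ± 0.075 in DMSO and 0.48 ± 0.075 and 0.24 ± 0.084 under MM401 (edgeR adjusted p = 2.56e-08, 5.60e-08, 2.73e-05 and 0.0251). Its last value missed the threshold without MM401 bicuculline replicates 1 or 2 or water replicates 1 or 2, with plain library sizes and with all 21 libraries. Kcnmb2 rose in DMSO at both times (0.48 ± 0.17 and 0.74 ± 0.17). The antisense Kcnmb4os2, which overlaps Kcnmb4 and counted 0.675 CPM, rose at 1 h (0.87 ± 0.22 and 0.74 ± 0.24). Of the Kv1 beta subunits, Kcnab1 and Kcnab2 fell (-0.48 ± 0.11 and -0.40 ± 0.095) and Kcnab3 rose (0.82 ± 0.22) at 4 h under MM401, and none of the 3 passed in the other comparisons with water.

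Of the 9 two-pore genes, whose channels give the background conductance, 3 rose and 3 fell at 1 h in DMSO (33.3% each, all genes 20% and 24.5%) and 4 rose and 2 fell at 4 h in DMSO (44.4% and 22.2%, all genes 23.7% and 25.5%). Under MM401 1 rose and 4 fell at 1 h (11.1% and 44.4%, all genes 18.1% and 21.8%), and 3 rose and 3 fell at 4 h (33.3% each, all genes 23.0% and 21.7%). Kcnk4, a mechanosensitive channel, fell in all 4 comparisons from a low level. The DMSO libraries held Kcnk4 at 1.47, 1.2 and 1.63 CPM in water, 0.551, 0.625 and 0.572 CPM at 1 h and 0.301, 0.629 and 0.445 CPM at 4 h. Under MM401, Kcnk4 stood at 1.33, 1.38 and 1.7 CPM (water 1 h), 1.58 and 1.24 CPM (water 4 h), 0.72, 0.583 and 0.733 CPM (bicuculline 1 h) and 0.433, 0.486 and 0.754 CPM (bicuculline 4 h). The bicuculline libraries did not reach the water libraries. Its log2 fold changes were -1.29 ± 0.23 and -1.62 ± 0.23 in DMSO and -1.11 ± 0.23 and -1.32 ± 0.26 under MM401, with the widest errors among the members that fell most. Kcnk12 fell in all 4 (-0.28 ± 0.089, -0.48 ± 0.09, -0.64 ± 0.09 and -0.80 ± 0.099), whereas its close relative Kcnk13 rose in 3 (0.35 ± 0.08 and 0.59 ± 0.08 in DMSO, 0.44 ± 0.09 at 4 h under MM401). Kcnk10 rose in DMSO (0.39 ± 0.081 and 0.44 ± 0.081) and at 1 h under MM401 (0.32 ± 0.081). Kcnk6 rose in DMSO (0.76 ± 0.23 and 0.79 ± 0.23) and at 4 h under MM401 (0.84 ± 0.26), from 0.424 to 0.633 CPM in the water libraries of these comparisons. Kcnk1 fell at 1 h under MM401 (-0.29 ± 0.08), Kcnk2 fell at 4 h under MM401 (-0.25 ± 0.086), and Kcnk9 passed in none. Kcnrg, which codes for a regulator of Kv assembly, fell at 1 h in DMSO (-0.59 ± 0.2).

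Some calls of the members named here rested on single libraries. At 1 h in DMSO, calls were lost for Kcnj9, Kcnt1, Kcnk3 and Kcnc1 without bicuculline replicate 1, for Kcnrg, Kcnt1, Kcnmb2 and Kcnk3 without replicate 2, and for Kcnj9, Kcnk12, Kcnt1, Kcnmb2, Kcna3 and Kcnc1 without replicate 3. They were lost there for Kcnj9, Kcnk12, Kcnt1, Kcnk3 and Kcnc1 without water replicate 1, for Kcnrg, Kcnt1, Kcnmb2, Kcna3 and Kcnc1 without water replicate 2, and for Kcnj9, Kcnmb2, Kcna3, Kcnk3, Kcnc1 and Kcnq1 without water replicate 3. At 4 h in DMSO they were lost for Kcnh1, Kcnh4 and Kcnq3 without bicuculline replicate 1, Kcna1 without replicate 2, Kcnt2, Kcnh4 and Kcnk3 without replicate 3, Kcnt2, Kcnh1 and Kcnq3 without water replicate 1, and Kcnh4, Kcnn3 and Kcnk3 without water replicate 2. At 1 h under MM401 they were lost for Kcnmb4os2 and Kcnv1 without bicuculline replicate 1, Kcnj10, Kcnv1, Kcnh8, Kcna6 and Kcnj11 without replicate 2, and Kcnj10 and Kcnj11 without replicate 3. They were also lost there for Kcnj10 and Kcnj11 without water replicate 1, Kcnv1, Kcna6 and Kcnj11 without water replicate 2, and Kcnmb4os2, Kcnv1, Kcnh8 and Kcna6 without water replicate 3. At 4 h under MM401 the losses were Kcnk2, Kcnmb4, Kcnf1, Kcnk3 and Kcnd1 without bicuculline replicate 1, Kcnmb4 and Kcnip3 without replicate 2, and Kcnq5, Kcnk2, Kcnf1, Kcnk3, Kcnk6 and Kcnd1 without replicate 3. With 1 water library left at 4 h, assumed to vary like the other groups, they were Kcnq5, Kcnj9, Kcnmb4, Kcnh4, Kcnf1, Kcnip3, Kcnd3os, Kcnk3, Kcnk6 and Kcnd1 (without replicate 1) and Kcnk2, Kcnmb4, Kcnf1, Kcnk3, Kcnk6, Kcnc1, Kcnq1ot1 and Kcnd1 (without replicate 2). Kcnj2, Kcna4, Kcnj4, Kcng1, Kcnk4, Kcnh3, Kcnc4, Kcnj12, Kcnn1 and Kcnip2 kept their calls in all 4 comparisons in each of these fits with 1 library left out.

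Other calls against water depended on the scaling or on the libraries fitted. With plain library sizes they were lost at 1 h in DMSO for Kcnf1, Kcnk13, Kcnj4, Kcnmb2, Kcnd3 and Kcnq1, at 4 h in DMSO for Kcnj4, Kcnn3, Kcnd3, Kcnk3, Kcna1, Kcnk6 and Kcnc1, at 1 h under MM401 for Kcnj10, Kcnmb4os2, Kcnf1, Kcnk10, Kcnv1, Kcnj4, Kcnh8 and Kcnn2, and at 4 h under MM401 for Kcnmb4, Kcnf1 and Kcnk3. The gene length correction ended the calls of Kcnj9, Kcnrg, Kcnmb2, Kcnd3os, Kcnd3, Kcna3 and Kcnq1 at 1 h in DMSO, Kcnj9 and Kcnn3 at 4 h in DMSO, Kcnh8, Kcnn2 and Kcna6 at 1 h under MM401, and Kcnf1 at 4 h under MM401. With all 21 libraries, the shallow one included, the losses were Kcnj9, Kcnrg, Kcnk12, Kcnip2, Kcnt1, Kcnd3, Kcna3, Kcnk3, Kcnk6 and Kcnc1 at 1 h and Kcnq3, Kcnn2, Kcnn3, Kcnd3, Kcnk3, Kcna1, Kcnk6 and Kcnu1 at 4 h in DMSO. Under MM401 they were Kcnv1, Kcnn2, Kcnip2 and Kcna6 at 1 h and Kcnmb4, Kcnf1, Kcnh5, Kcnq3, Kcnn2, Kcnip3, Kcnab1, Kcnk3, Kcnk6 and Kcnd1 at 4 h. Of the members that rose or fell in all 4 comparisons, Kcnj2, Kcna4, Kcng1, Kcnk4, Kcnh3, Kcnh4, Kcnc4, Kcnj12 and Kcnn1 lost no such call under these 3 settings. With the compared groups alone calls ended for Kcnrg, Kcnk12, Kcnt1, Kcnmb2, Kcna3, Kcnk3 and Kcnc1 at 1 h and Kcnk3 at 4 h in DMSO, and for Kcnj9 and Kcnk3 at 4 h under MM401. DESeq2 ended those of Kcnk3 and Kcnc1 at 1 h in DMSO and Kcnj11 at 1 h under MM401. Its size factors in edgeR ended those of Kcnt1, Kcnk3 and Kcnc1 at 1 h in DMSO and Kcnk3 at 4 h under MM401, and with no filter on low counts Kcnmb2 at 1 h in DMSO and Kcnk3 at 4 h under MM401 were lost. For 4 h against 1 h of bicuculline, described next, plain library sizes ended the DMSO calls of Kcnk13, Kcnh7, Kcnn3 and Kcnq1ot1 and the MM401 calls of Kcnf1, Kcng1 and Kcnn1. All 21 libraries ended those of Kcnk13, Kcnn2, Kcnh7, Kcnip3, Kcnn3, Kcnab2, Kcnq1ot1 and Kcnu1 in DMSO and of Kcnf1, Kcnh8, Kcnn2, Kcna4, Kcng1, Kcnip4 and Kcnd2 under MM401. The compared groups alone ended those of Kcnk13, Kcnn3 and Kcnq1ot1 in DMSO and Kcnd2 under MM401. The DMSO calls of Kcnh7 and Kcnq1ot1 and the MM401 call of Kcnd2 were also lost with DESeq2's size factors, that of Kcnh7 with DESeq2, those of Kcnt2, Kcnh7 and Kcnq1ot1 in DMSO and Kcnip4 under MM401 with no filter, and those of Kcnq1ot1 in DMSO and Kcna4 under MM401 with the length correction.

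Between 1 h and 4 h of bicuculline more members went down than up. In DMSO 13 were higher and 19 lower at 4 h (18.1% and 26.4%, all genes 19.1% and 15.2%), and with plain library sizes 9 and 26 (12.5% and 36.1%, all genes 11.9% and 18.5%). Under MM401 10 were higher and 25 lower (13.9% and 34.7%, all genes 17.5% and 16.0%). Among the larger rises were those of Kcns3 (0.72 ± 0.13 in DMSO and 0.57 ± 0.13 under MM401) and Kcnd2 (0.67 ± 0.13 and 0.33 ± 0.13), and in MM401 Kcna3 (0.66 ± 0.14, with 0.11 ± 0.14 in DMSO) and Kcna1. Among the larger falls were those of Kcng1 (-1.01 ± 0.21 and -0.62 ± 0.22), Kcng2 (-0.92 ± 0.12 and -0.81 ± 0.12), Kcnip2 (-0.89 ± 0.097 and -0.98 ± 0.098) and Kcnq3 (-0.63 ± 0.13 and -0.96 ± 0.14). The arms share no library here, and 9 members rose in both (69.2% of the 13 and 90% of the 10, all genes 67.6% and 73.5%) and 16 fell in both (84.2% of the 19 and 64% of the 25, all genes 74.5% and 70.6%). No member was called in opposite directions. Calls in DMSO were lost for Kcnt2, Kcnk13, Kcnh7 and Kcnq1ot1 without 1 h replicate 1, for Kcnk13, Kcnh7, Kcnip3, Kcnab2 and Kcnu1 without 1 h replicate 2, and for Kcnt2, Kcnh7, Kcnab2 and Kcnq1ot1 without 1 h replicate 3. They were lost for Kcnt2, Kcnk13, Kcnh7, Kcnab2, Kcnq1 and Kcnu1 without 4 h replicate 1, for Kcnh7, Kcnip3, Kcnab2 and Kcnq1ot1 without 4 h replicate 2, and for Kcnt2, Kcnk13, Kcnt1 and Kcnh7 without 4 h replicate 3. Under MM401 the losses were Kcnf1, Kcng1, Kcnip4, Kcnd2 and Kcnn1 without 1 h replicate 1, Kcnip4 and Kcnn1 without 1 h replicate 2, and Kcnf1, Kcnh8 and Kcnd2 without 1 h replicate 3. They were Kcnh8, Kcng1 and Kcnd2 without 4 h replicate 1, Kcnf1, Kcng1, Kcnd2 and Kcnn1 without 4 h replicate 2, and Kcnq5, Kcnf1, Kcnip4 and Kcnn1 without 4 h replicate 3. Taking each MM401 time against its own water gave 5 higher and 14 lower members (6.94% and 19.4%, all genes 6.12% and 6.78%). Of the members named here that ended the MM401 calls of Kcna3, Kcna4, Kcnab2, Kcnb2, Kcnd2, Kcnf1, Kcng1, Kcng2, Kcnh8, Kcnip1, Kcnip4, Kcnj2, Kcnk9, Kcnmb4, Kcnn1, Kcnq1 and Kcns3. The calls of Kcnip2 and Kcnq3 held (-0.88 and -0.92, edgeR adjusted p = 0.000202 and 0.00427).

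The MM401 responses at 1 h and 4 h rest on separate water groups and share no library, so their members can be set side by side. At both times 6 members rose (50% of the 12 and 40% of the 15, all genes 68.8% and 54.2%) and 15 fell (68.2% of the 22 and 53.6% of the 28, all genes 58.1% and 58.5%), differences from all genes that were not tested. The 6 were Kcna4, Kcnf1, Kcnh8, Kcnj2, Kcnj4 and Kcnmb4. Kcna1, Kcnc1 and Kcnk3 went from lower to higher and Kcnn2 from higher to lower. Between water at 4 h (n = 2) and at 1 h under MM401 no member passed (edgeR, lowest adjusted p 0.0996), where 0.867% of all genes did. The log2 fold changes of members ran from -0.53 to 0.39. An unadjusted p under 0.05 was reached by 9 members, or 12.5%, and by 10% of all genes. DESeq2 called 1 member there (Kcnh5, 0.39 ± 0.12), as did plain library sizes and the gene length correction (Kcnh5, 0.32 ± 0.068 and 0.34 ± 0.062). The compared groups alone called Kcnh5 (0.38 ± 0.068) and Kcnh1 (0.28 ± 0.055).

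The responses to bicuculline with MM401 and with DMSO were alike in direction for the members called in both. At 1 h 8 members rose in both arms (57.1% of 14 and 66.7% of 12, all genes 66.1% and 73.2%) and 17 fell in both (77.3% of 22 in each, all genes 70.4% and 79.2%). At 4 h 12 rose in both (63.2% of 19 and 80% of 15, all genes 70.9% and 73%) and 22 fell in both (88% of 25 and 78.6% of 28, all genes 65.6% and 77.3%). The shares of members lay on both sides of those of all genes, which was not tested. No member was called in opposite directions at either time, and few of all genes were (19 and 26 at 1 h, 7 and 4 at 4 h).

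**Figure D4:**
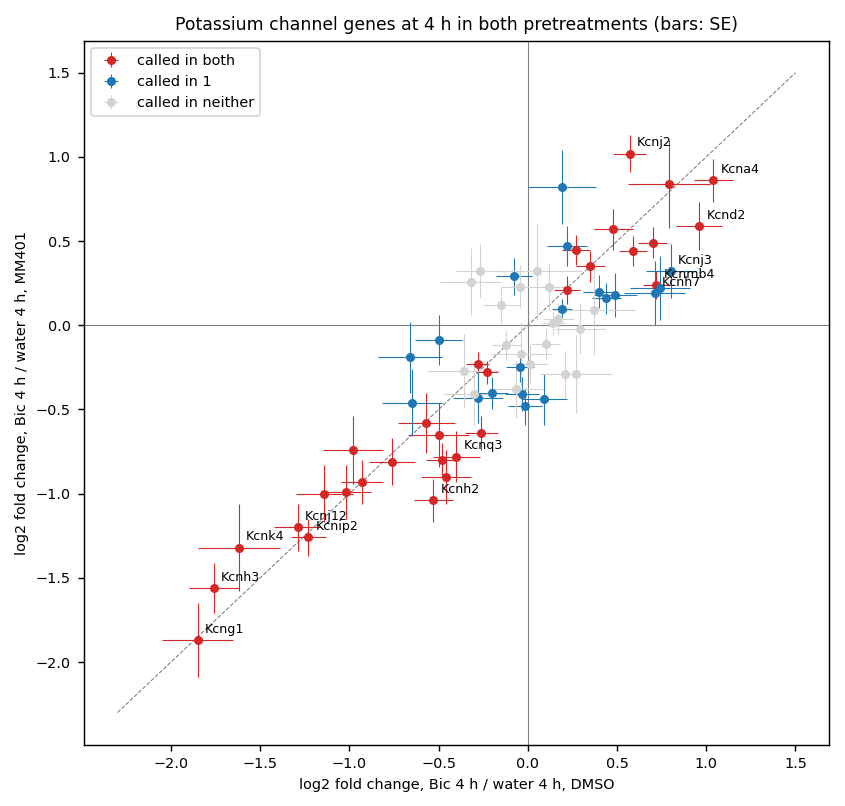
Log2 fold change of potassium channel genes at 4 h of bicuculline against water at 4 h, in DMSO (horizontal) and under MM401 (vertical), with standard errors; the dashed line marks equal values, and colours mark members called in both arms, in 1 or in neither. The points run along the line from Kcng1 at -1.85 and -1.87 to Kcna4 at 1.04 and 0.86. Kcnmb4, Kcnh2, Kcnj2, Kcnj3 and Kcnh7 are among the members that lie off it.

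In the main edgeR fit no member passed between MM401 and DMSO in the comparisons of the pretreatments. In water at 4 h edgeR called 0 of 72 (lowest adjusted p 0.129), where 0.0826% of all genes were called. An unadjusted p under 0.05 was reached there by 10 members, or 13.9%, and by 12.9% of all genes. In bicuculline edgeR called 0 members at 1 h (lowest adjusted p 0.999, all genes 0.00590%) and 0 at 4 h (lowest adjusted p 0.639, all genes 0%). Unadjusted, these were 3 members at 1 h (4.17%, all genes 3.18%) and 6 at 4 h (8.33%, all genes 7.72%). The bicuculline response differed between the arms for 0 members at 4 h (edgeR, lowest adjusted p 0.202, all genes 0%) and for 0 at 1 h with both arms taken against water at 4 h (lowest adjusted p 0.352, all genes 0%). Unadjusted, these were 16 members at 4 h (22.2%, all genes 15%) and 6 at 1 h (8.33%, all genes 7.82%). DESeq2 called Kcnj2 and Kcnh2 in water (-0.40 ± 0.11 and 0.48 ± 0.13) and Kcnab1 for the 4 h difference in response (-0.49 ± 0.16), and 0 members in the others. The target's own gene, Kmt2a, was not called in any of these comparisons.

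For several members the 95% interval of the difference between the arms lay off 0, although the adjusted p did not pass. The SE of that difference at 4 h had a median of 0.18 over the members and reached 0.38. For Kcnmb4 the response at 4 h under MM401 minus that in DMSO was -0.48, with a 95% interval of -0.72 to -0.25 (edgeR adjusted p = 0.202). For Kcnj2 it was 0.45 (0.16 to 0.73, edgeR adjusted p = 0.229), for Kcnh2 -0.51 (-0.87 to -0.16, edgeR adjusted p = 0.229) and for Kcnab1 -0.46 (-0.75 to -0.16, edgeR adjusted p = 0.229). The levels in water moved the other way: MM401 minus DMSO was 0.29 for Kcnmb4 (0.11 to 0.46), -0.42 for Kcnj2 (-0.64 to -0.20) and 0.46 for Kcnh2 (0.20 to 0.71). The same water libraries enter both values.

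Calls in these comparisons depended on 1 library. Replicate 1 of DMSO with water at 4 h was the highest of its group in 16 of the 16 members of at least 250 kb, which summed to 10157 CPM there and to 7398 and 6751 CPM in replicates 2 and 3. The other 684 genes of that length did the same (366344 against 290349 and 277454 CPM). Replicate 1 of MM401 with water at 1 h was also the highest of its group in 16 of 16 (10017 against 8398 and 7881 CPM). That of MM401 with water at 4 h was the higher in 13 of 16 (9664 against 9230.0 CPM). In the bicuculline groups replicate 1 was the highest in 3 and 2 of 16 at 1 h and 4 h in DMSO, and in 6 at each time under MM401. Without the DMSO library, 14 members differed between MM401 and DMSO in water (12 higher and 2 lower; 19.4%, all genes 7.5%), among them Kcnj10 (-0.82 ± 0.13), Kcnj2 (-0.50 ± 0.11), Kcnmb4 (0.38 ± 0.079), Kcnk12 (0.44 ± 0.092) and Kcnq5 (0.51 ± 0.12). The response at 4 h then differed for 16 members (3 higher and 13 lower, 22.2%, all genes 9.15%), with Kcnmb4 at -0.58 ± 0.1 (edgeR adjusted p = 0.00364), Kcnab1 at -0.60 ± 0.12 (0.00594) and Kcnq5 at -0.75 ± 0.15 (0.00654). Of these 16, Kcnq5, Kcnt2, Kcnh1, Kcnh5, Kcnma1, Kcnh7, Kcnab1 and Kcnd2 are at least 250 kb long. The shares of all genes are not matched for length. With all deep libraries the median of this difference was 0.17 for all genes under 20 kb and -0.29 for those of at least 250 kb (members 0.22 and -0.38). The part of length was not tested. With the DMSO library left out, the response at 1 h differed for 2 members (2.78%, all genes 0.572%), Kcnj10 (0.91 ± 0.17) and Kcnk12 (-0.64 ± 0.12). Astrocyte markers, beside which Kcnj10 is read, had a median of -0.39 for MM401 against DMSO in water with all 3 DMSO libraries, with 0 of 7 called, and their part in the Kcnj10 values was not tested. With the replicate number as a block none of the 72 was called in these comparisons.

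**Figure D5:**
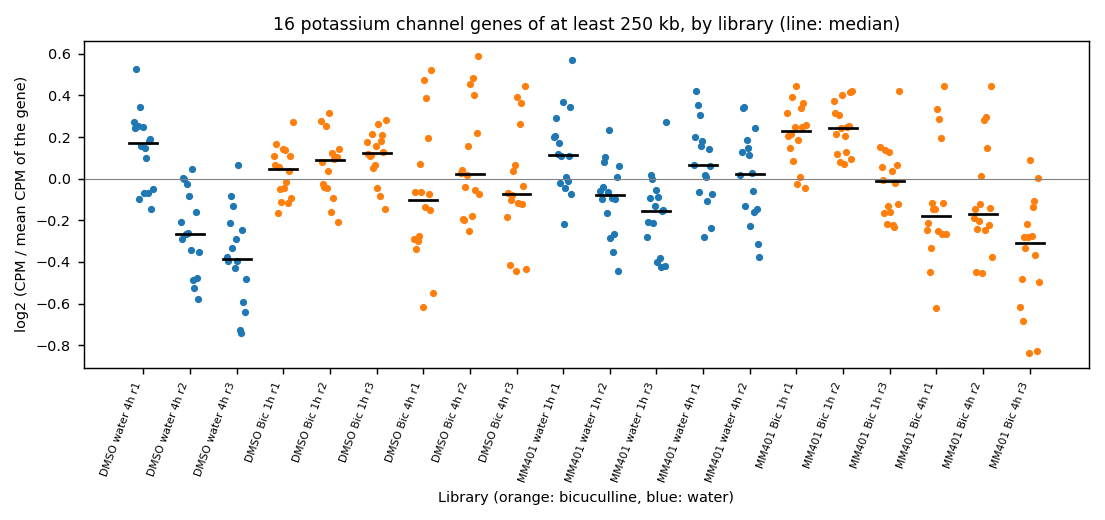
Log2 of the level of each of the 16 members of at least 250 kb over that member's mean level (vertical), in the 20 deep libraries (horizontal; blue, water; orange, bicuculline); a line marks the median. Replicate 1 of DMSO with water at 4 h lies above replicates 2 and 3 of its group, whose sums over these members are 7398 and 6751 CPM against 10157 CPM.

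Members differ in length from 1.82 to 896.0 kb, and calls of all genes differed in share with length. At 1 h in DMSO 5 of the 22 members under 20 kb rose and 10 fell (22.7% and 45.5%, all genes of that length 10.4% and 30%), with a median log2 fold change of -0.25 beside -0.17. Of the 16 members of at least 250 kb 3 rose and 0 fell (18.8% and 0%), where 50.1% of all genes of that length rose and 1.43% fell, although the medians were 0.22 and 0.24. At 4 h in DMSO 4 of these 16 rose and 4 fell (25% each, all genes 50.7% and 12.4%). At 4 h under MM401 2 rose and 7 fell (12.5% and 43.8%, all genes 22.7% and 27.3%), with medians of -0.29 and -0.033. Of the 27 members of 20 to 100 kb 13 fell at 4 h in each pretreatment (48.1%, all genes 24.2% and 26.1%), with medians of -0.30 and -0.40 beside 0.036 and 0.0041. The 7 members of 100 to 250 kb went the other way at 4 h in DMSO, where 5 rose and 0 fell (71.4% and 0%, all genes 49.9% and 14.5%), with a median of 0.40 beside 0.23. At 4 h under MM401 0 of these 7 rose and 1 fell (0% and 14.3%, all genes 36.1% and 23.9%), with medians of 0.16 and 0.095. At 1 h 3 of them rose in DMSO and 2 under MM401 (42.9% and 28.6%, all genes 41.5% and 37.5%), and 0 fell in either (all genes 5.76% and 4.61%). The differences between members and all genes of their length were not tested.

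Other genes that act with potassium channels were counted over a list of 32, of which 31 were tested. In DMSO 6 rose and 5 fell at 1 h (19.4% and 16.1%, all genes 20% and 24.5%) and 12 rose and 6 fell at 4 h (38.7% and 19.4%, all genes 23.7% and 25.5%). Under MM401 4 rose and 5 fell at 1 h (12.9% and 16.1%, all genes 18.1% and 21.8%) and 4 rose and 9 fell at 4 h (12.9% and 29%, all genes 23.0% and 21.7%). The differences from all genes were not tested. Lgi1, a secreted partner of Kv1 complexes, rose by 0.86 ± 0.07 and 0.92 ± 0.07 in DMSO and 0.99 ± 0.07 and 0.70 ± 0.079 under MM401. Dlg1, a scaffold of synapses, rose by 0.57 ± 0.092 and 1.07 ± 0.093 in DMSO and 0.61 ± 0.092 and 0.69 ± 0.1 under MM401. The hyperpolarisation-activated channel genes Hcn2, Hcn3 and Hcn4 fell in all 4 comparisons, with Hcn2 at -0.96 ± 0.12, -0.81 ± 0.12, -0.94 ± 0.12 and -0.77 ± 0.13. Cntn2, an axonal adhesion protein that gathers Kv1 channels, fell by 0.33 and 1.01 on the log2 scale in DMSO and by 0.54 and 1.12 under MM401. Amigo1, an auxiliary protein of Kv channels, fell in DMSO at both times (-0.56 ± 0.13 and -0.58 ± 0.13) and at 1 h under MM401 (-0.55 ± 0.13). Its relative Amigo2 rose at 1 h under MM401 (0.53 ± 0.2, edgeR adjusted p = 0.0364), at 1.37 CPM on average, and passed in none of the other 3.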

How the data were processed

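BrU-seq libraries of mouse cortical cultures were analysed from 1 table of raw counts per gene, deposited by the authors. Per the submitters' processing notes the tools were Bowtie2, featureCounts, UMI-tools, DESeq2 and deepTools, with build mm10. The counts cover whole genes, introns included, per the file headers. Use of strand and tool versions are not given in the sources used here, so counts of overlapping genes (18 of the 72 members) are uncertain. Groups and replicate numbers came from the labels.

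Counts were tested in R 4.3.3 with edgeR 4.0.16 (robust quasi-likelihood, TMM, limma 3.58.1) on the 20 deep libraries, with 1 mean per group and no block, after filterByExpr (minimum count 10, minimum total 15), which kept 16959 of 24984 genes. P-values were adjusted by Benjamini-Hochberg over all genes tested in each of 12 comparisons, two-sided, and the 2 interactions are the response under MM401 minus that in DMSO (at 1 h both against water at 4 h). Errors of fold changes are SE. The test was checked on counts simulated with 1 spread for all genes and no replicate or length structure. For bicuculline at 4 h in DMSO it called 20%, 93.3% and 100% of changes of 0.3, 0.6 and 1 on the log2 scale. Of unchanged genes it called 0.0728%. With totals of 49886348 to 87939384 counts, the fit gave a biological coefficient of variation of 8.77%. The members, lists and tests were chosen with earlier results of these data known. Genes with values in each comparison were the called members with the largest changes (8 per direction, with 1 CPM or more in the higher of the groups compared), and values per library are given for those called in all 4 bicuculline comparisons (4 higher, 13 lower) with the largest mean change, up to 6 per direction. Kcna1, Kcna2, Kcnc1, Kcnd2, Kcnh7, Kcnj3, Kcnj10, Kcnk2, Kcnma1, Kcnn2, Kcnq3, Kcnt1 and Kcnip4 were always named. The other members given values, and the further members shown per library (Kcnk3 and Kcnip2 among them), were chosen after their values were seen. Some genes of the rules are not reported here, and counts include them.

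Replicates did not agree within sampling noise (chi-square per degree of freedom at least 6.14), so none was counted as a duplicate. Replicate numbers recur across groups with no stated meaning. After subtracting group means, libraries of equal number correlated over 0.1 in 25 of 57 pairs (median 0.0898). All 3 pairs exceeded 0.1 in 3 of 15 pairs of groups, of which 1 was compared (MM401 against DMSO in bicuculline at 4 h, 0.15, 0.107 and 0.172). Alternatives were DESeq2 1.42.0, other scaling, no filter, a gene length correction, all 21 libraries, the compared groups alone, a replicate block and each library left out.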

Additional observations from a re-analysis of the deposited data

Results flagged for a closer look

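Kcna1, Kcnc1 and Kcnk3 stood out for a level below water at 1 h and above water at 4 h of bicuculline, in both pretreatments. The difference between the responses at 4 h and 1 h in DMSO, where both use the same water libraries, was 0.64 for Kcna1, 0.56 for Kcnc1 and 0.42 for Kcnk3 on the log2 scale. These values are a description, with no test. They were picked for calls in opposite directions at the 2 times, so the size of this difference follows largely from that choice and is no independent support for it.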

How the results depend on the processing

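With 1 library left out at a time, the number of members called was 29 to 44 for bicuculline at 1 h and 41 to 48 at 4 h in DMSO, 30 to 37 and 33 to 41 under MM401, 26 to 32 and 30 to 36 for 4 h against 1 h of bicuculline in DMSO and MM401, 0 to 14 for MM401 against DMSO in water, 0 to 16 and 0 to 2 for the difference in response at 4 h and 1 h, and 0 to 0 for the other comparisons. The values 14, 16 and 2 came without replicate 1 of DMSO with water. Taking each time against its own water under MM401 gave 19 members for 4 h against 1 h, 17 of them among the 35; this was chosen after seeing the data. Water at 4 h against 1 h had 1 member called with DESeq2, 1 with the gene length correction, 1 with plain library sizes and 2 with the compared groups alone. DESeq2 called 2 members for MM401 against DMSO in water and 1 for the difference in response at 4 h. With plain library sizes Kcna1 and Kcnk3 at 4 h in DMSO turned to -0.0086 and -0.054. With the replicate number as a block 42, 47, 39 and 44 members were called in the 4 bicuculline comparisons (8035, 8782, 7291 and 7892 of all 16959 genes). For 4 h against 1 h 35 and 36 members were called (6229 and 6129 of all genes), and 0 members in the others. The block so moved no count of members by over 1.5 times. With all 21 libraries the counts of members in the 4 bicuculline comparisons were 25, 36, 29 and 34 (5223, 6411, 4599 and 5898 of all 16784 genes). The other counts remained within 1.5 times. Of 3128 alternative values for the 224 called pairs of member and comparison, 292 missed the threshold, and 5 of these also turned (Kcnn3 under plain library sizes and the length correction, Kcnn2 under the length correction, and Kcna1 and Kcnk3 as above). In 130 of the pairs the call held throughout. The causes were not tested. Low counts limit members near 0.5 CPM, and n = 2 limits water at 4 h under MM401.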
